A study of Mus musculus with 22 samples.

Results

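The comparison described here is 12 weeks of high-fat diet against chow in mouse adipocyte nuclei, and its members were chosen by their labels: 3 libraries of group H and 3 of group C, 6 of the 22 libraries of the series. Open chromatin was measured by ATAC-seq, in which the transposase Tn5 cuts DNA where it is not packed into nucleosomes. All mice were AdipoERCre x NuTRAP animals, controls included. They carried a tamoxifen-inducible Cre recombinase driven by the Adipoq promoter and a reporter that, after recombination, puts biotin on the nuclei and GFP on the ribosomes of adipocytes, and all received tamoxifen followed by a washout. Mice of group H were 18 weeks old and had eaten high-fat diet for 12 weeks. Mice of group C were 18 weeks old and had eaten low-fat chow. Each library came from the snap-frozen epididymal fat of 1 animal, from which the biotin-labelled nuclei were pulled out, so the data describe male visceral adipocytes that had recombined. Groups HH (25 weeks of high-fat diet, 3 libraries) and CC_l (its chow control of the same age, 31 weeks, 2 libraries) are used for side values and for an interaction test. Groups HC (12 weeks of high-fat diet, then 8 weeks of chow) and CC_s (its chow control), both 26 weeks old, entered an alternative fit, and all 22 libraries set the common signal distribution. The question put to the libraries was which loci were more or less accessible after the diet.

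White adipocytes store triglyceride. In the fed state they take up glucose, make fatty acids through ATP citrate lyase, acetyl-CoA carboxylase and fatty acid synthase, and release fatty acids again on fasting. Their chromatin carries open promoters at active genes and open distal elements that bind factors such as PPAR-gamma, CEBP proteins, EBF2 and the glucocorticoid receptor. In mice on high-fat diet epididymal fat expands, its adipocytes enlarge, lipogenic genes are typically turned down and macrophages enter the tissue.

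The sequences that follow bear on the results below, and each is given from GRCm38 on the plus strand unless stated. The first are windows of 300 bases around the strongest point of regions that hold a transfer RNA (tRNA) gene and were higher in H, shown because such regions made up a separate class. Capitals mark the tRNA gene. The windows are chr13:23400688-23400987 with n-TAagc12 (73 bases), chr3:96321959-96322258 with n-TNgtt4 (74 bases) and chr1:171064472-171064771 with n-TGtcc1 (72 bases), as RefSeq names and places them.
tRNA window, chromosome 13: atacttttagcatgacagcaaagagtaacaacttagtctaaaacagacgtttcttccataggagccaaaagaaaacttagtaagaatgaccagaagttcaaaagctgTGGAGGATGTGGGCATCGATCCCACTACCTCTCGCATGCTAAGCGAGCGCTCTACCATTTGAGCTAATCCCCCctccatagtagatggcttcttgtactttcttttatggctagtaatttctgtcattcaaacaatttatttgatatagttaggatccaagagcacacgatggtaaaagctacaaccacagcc
tRNA window, chromosome 3: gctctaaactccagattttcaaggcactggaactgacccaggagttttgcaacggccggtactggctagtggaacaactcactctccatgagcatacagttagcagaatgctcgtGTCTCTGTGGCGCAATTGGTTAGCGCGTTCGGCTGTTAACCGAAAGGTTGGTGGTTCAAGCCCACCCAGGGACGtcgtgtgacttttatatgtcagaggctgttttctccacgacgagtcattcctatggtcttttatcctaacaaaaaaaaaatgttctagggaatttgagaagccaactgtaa
tRNA window, chromosome 1: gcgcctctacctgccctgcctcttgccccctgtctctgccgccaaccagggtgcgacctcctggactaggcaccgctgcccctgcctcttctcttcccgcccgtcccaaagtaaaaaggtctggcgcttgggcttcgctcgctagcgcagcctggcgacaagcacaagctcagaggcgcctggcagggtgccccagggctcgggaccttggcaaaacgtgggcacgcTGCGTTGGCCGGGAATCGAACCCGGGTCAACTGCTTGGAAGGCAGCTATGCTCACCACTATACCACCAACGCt

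The second are windows of regions near Arnt2 (chr7:84335786-84336085), Lmo1 (chr7:109187725-109188024) and Prkch (chr12:73635202-73635501), which were higher in H, and near Slc2a5 (chr4:150138099-150138398) and in Acaca (chr11:84198114-84198413), which fell. They show short motifs whose shares in the sets of regions are described further on. Capitals mark matches to AP-1 (TGANTCA), CEBP (TTGCNNAA), TEAD (GGAATG), RUNX (TGTGGT) or the GC-box (GGGCGG), searched on both strands. The Arnt2 window held 1 AP-1 match, the Lmo1 window 2 AP-1 matches, the Prkch window 1 RUNX match, the Slc2a5 window 1 AP-1 and 1 CEBP match and the Acaca window 1 TEAD match.
Arnt2 region: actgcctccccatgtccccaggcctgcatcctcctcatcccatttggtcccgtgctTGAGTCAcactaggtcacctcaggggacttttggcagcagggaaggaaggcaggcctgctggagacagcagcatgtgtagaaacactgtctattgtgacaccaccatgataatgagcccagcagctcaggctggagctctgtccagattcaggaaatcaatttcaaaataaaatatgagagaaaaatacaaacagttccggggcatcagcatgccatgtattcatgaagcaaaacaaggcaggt
Lmo1 region: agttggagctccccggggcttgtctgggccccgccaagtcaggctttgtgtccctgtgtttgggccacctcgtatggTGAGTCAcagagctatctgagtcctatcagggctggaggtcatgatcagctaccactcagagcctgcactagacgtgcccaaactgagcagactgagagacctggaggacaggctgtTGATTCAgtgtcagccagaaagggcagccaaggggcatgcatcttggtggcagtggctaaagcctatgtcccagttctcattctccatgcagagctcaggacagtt
Prkch region: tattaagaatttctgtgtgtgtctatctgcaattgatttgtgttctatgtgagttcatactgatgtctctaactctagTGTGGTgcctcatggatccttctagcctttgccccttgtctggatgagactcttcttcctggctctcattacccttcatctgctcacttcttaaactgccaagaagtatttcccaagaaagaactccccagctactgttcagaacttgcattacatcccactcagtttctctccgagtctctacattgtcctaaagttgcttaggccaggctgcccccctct
Slc2a5 region: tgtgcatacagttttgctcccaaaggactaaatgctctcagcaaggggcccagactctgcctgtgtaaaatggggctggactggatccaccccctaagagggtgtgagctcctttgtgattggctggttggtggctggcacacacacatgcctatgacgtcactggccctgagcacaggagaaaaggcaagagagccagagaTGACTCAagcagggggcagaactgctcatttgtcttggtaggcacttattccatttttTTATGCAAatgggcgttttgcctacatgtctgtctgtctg
Acaca/Gm11437 region: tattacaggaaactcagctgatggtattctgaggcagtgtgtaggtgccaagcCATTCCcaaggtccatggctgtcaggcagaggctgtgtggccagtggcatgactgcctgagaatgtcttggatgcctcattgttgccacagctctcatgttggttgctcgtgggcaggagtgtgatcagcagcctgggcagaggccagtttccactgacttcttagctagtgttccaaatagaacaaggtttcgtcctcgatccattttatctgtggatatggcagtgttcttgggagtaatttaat

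The last is the RefSeq promoter of Acly, which encodes ATP citrate lyase and whose promoter value fell in H. It covers 250 bases before to 50 after the start, at chr11:100527951-100528250 on the minus strand, and held 4 GC-box matches and 1 RUNX match. Among the 32851 RefSeq promoters of this length, 7.81% held an AP-1 match, 14.7% a TEAD match, 16.8% a RUNX match, 10.8% a CEBP match and 35.7% a GC-box match. A match is a description of the letters and not evidence of binding.
Acly promoter: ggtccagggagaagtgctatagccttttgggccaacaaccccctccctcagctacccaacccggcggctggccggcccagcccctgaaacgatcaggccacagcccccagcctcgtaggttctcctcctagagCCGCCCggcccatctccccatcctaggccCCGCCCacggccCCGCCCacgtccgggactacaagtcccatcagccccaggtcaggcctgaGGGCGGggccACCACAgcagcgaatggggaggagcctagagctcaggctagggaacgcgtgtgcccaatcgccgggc

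The deposited lists gave 43314 to 50276 peaks per library after the single mitochondrial peak was set aside, covering 196.9 to 257.7 Mb. Each peak has a total signal (coverage summed over its bases) and a maximum signal (the highest coverage at any base). Read counts are not part of the lists, and the sequencing depth behind a value is therefore unknown. The median maximum signal of a library divided by its lowest was 6.82, 8.11 and 8.92 in C and 5.10, 4.70 and 6.40 in H, and the groups did not overlap (exact permutation test, two-sided, p = 0.1, the smallest that 3 against 3 allow). Peaks wider than 20 kb numbered 603, 994 and 1578 in C and 621, 543 and 509 in H (exact permutation p = 0.2). The part of these library differences in the results below was not tested. Values below are log2 total signal after each library was mapped to a common distribution by rank, which sets the floor for a region without enough signal at 14.01. A difference against a group that lies wholly at the floor is a lower bound.

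The labelled cell type was checked at the promoters of marker genes. All 25 adipocyte identity genes had a promoter peak in every one of the 6 libraries. Of 12 macrophage markers 2 to 5 had one in C and 3 to 5 in H, and 6 of them, Cd163, Ctss, Cx3cr1, Itgam, Mrc1 and Tyrobp, had none in any library. Cd68 and Fcer1g had one in all 6 libraries. Of 12 endothelial markers 1 to 3 had one in C and 1 to 4 in H, of 12 progenitor and fibroblast markers 6 to 7 in C and 6 to 8 in H, of 12 lymphocyte markers 2 to 3 in C and 1 to 2 in H, and of 8 epididymal epithelium markers 1 in C and 0 to 1 in H. Of the mesothelial markers, which belong to the sheet that covers the fat pad, 4 had a promoter peak only in C. Of 12, 3 to 6 had a promoter peak in C and 0 to 1 in H, and these peaks held 0.00179 to 0.0065% of a library's signal in C against 0 to 0.000671% in H. Lrrn4 and Wt1 had a peak in 3 C libraries and 0 H libraries, whereas Msln, Upk1b, Krt18, Gpm6a, Muc16 and Bnc1 had none in any library. Krt8 had a peak in 2 C libraries and 1 H library, and Krt19 in 1 of each group. The share of all promoters with a peak only in C is not given here. The part of these markers in the results was not tested.

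Of 30840 regions tested, 1520 were higher in H (4.93%) and 1035 were lower (3.36%) at an adjusted p under 0.05 and a log2 difference above 1 (limma with Benjamini-Hochberg adjustment). In 1630 of the tested regions every C library was at the floor, and in 1152 every H library. Such regions entered only through the other group, so their direction was set by the filter (415 of the higher and 140 of the lower calls), and they are described below by their values, with no p. Above the floor in both groups, meaning in 1 library or more of each, 1105 of 28058 regions were higher (3.94%) and 895 lower (3.19%). A region with 2 libraries of a group at the floor still passed the filter only with the other group. Its p is no independent support. Among the higher regions were stretches in Pam, Prkch, Arnt2 and Cep192 that were at or next to the floor in every C library. Among the lower ones were a stretch of 254 kb over Acaca, which encodes acetyl-CoA carboxylase 1, and regions in Kit, Creb5 and Cradd. Because labelled nuclei of a whole fat pad were pooled, fewer nuclei in which a site is open and less opening per nucleus cannot be told apart. The calls rested on C 2 more than on any other library: without it, the same 30840 regions gave 439 higher and 272 lower calls. Without C 1, H 1 or H 2 they gave 886, 985 and 954 higher and 604, 486 and 468 lower calls. Statements below on a left-out library keep the tested regions fixed. With the filter applied anew to 5 libraries, 19 named regions that kept their call without C 2 lost it, at adjusted p from 0.0501 to 0.0657, among them those of Pdlim1, Rab23, Cradd, Fasn, Acly, Acta2, Cacna1c, Ext1, Rora, Grb14, Ppargc1a and Tgfb2 named below. Of all calls 59.5% were higher, but with libraries centred on the median instead of mapped by rank 81.5% were (3559 higher and 807 lower), with the median of all regions at 0.17 rather than -0.05.

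Pam encodes the enzyme that amidates peptide hormones. At its region chr1:97950805-97966539, which spans a start site, C 1, C 2 and C 3 were all at the floor of 14.01, and H 1, H 2 and H 3 stood at 17.30, 17.62 and 17.25. The region entered the test only through H, and H stood at least 3.38 above C. Prkch encodes protein kinase C eta. Its intronic region chr12:73625221-73640107 was at 14.01 in every C library and at 17.03, 17.20 and 16.85 in H, at least 3.01 higher, and it too entered only through H. Arnt2 encodes a bHLH-PAS transcription factor that pairs with other proteins of its family. Its promoter region chr7:84329759-84341869 had 14.01, 14.01 and 14.03 in C and 17.13, 17.04 and 16.83 in H, a difference of 2.98. With 1 C library just above the floor, it passed the filter only with H.

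Cep192, which encodes a scaffold of the centrosome, had an exonic region at the floor in every C library and at 16.83, 17.00 and 16.89 in H, at least 2.89 higher, and entered only through H. A region shared by Cyb5r2, a cytochrome b5 reductase gene, and Ppfibp2, a liprin gene, was the one among the 6 smallest p of higher regions that was clearly open in C. At chr7:107742801-107761237 it stood at 15.92, 15.43 and 15.66 in C and at 18.04, 18.13 and 17.93 in H. It rose by 2.36 (SE 0.16, limma adjusted p = 0.00198), with no overlap between the groups. The remaining region of these 6, near Abt1, holds a tRNA gene and is described with that class. On the maximum signal these 6 differed by 1.44 to 2.08.

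Among regions linked to a gene with a peak in all 6 libraries, the strongest rise was in Pdlim1, which encodes a PDZ and LIM domain protein of actin stress fibres. Its region chr19:40220851-40259435 had 14.14, 14.01 and 15.32 in C and 17.64, 18.11 and 17.32 in H, a rise of 3.20 (SE 0.37, limma adjusted p = 0.00456). The lowest H library lay well above C 3, the highest of the controls. Peaks covered 2.4, 1.9 and 7.5 kb of this region in C and 19.8, 24.7 and 17.2 kb in H. By the same measure Tmem182 (a transmembrane protein gene) rose by 2.86, Lmo1 (a LIM-only transcriptional co-regulator) by 2.76, Atp2a3 and P2rx1 (a calcium pump and an ATP-gated channel) by 2.58, Rab23 (a small GTPase of hedgehog signalling) by 2.56 and Myo5b (a myosin of vesicle transport) by 2.55. Their adjusted p ran from 0.00255 to 0.00523, and the calls held without any 1 library over the same regions. By its maximum signal the Tmem182 region differed by 0.54 and was not called (adjusted p = 0.112).

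**Figure D1:**
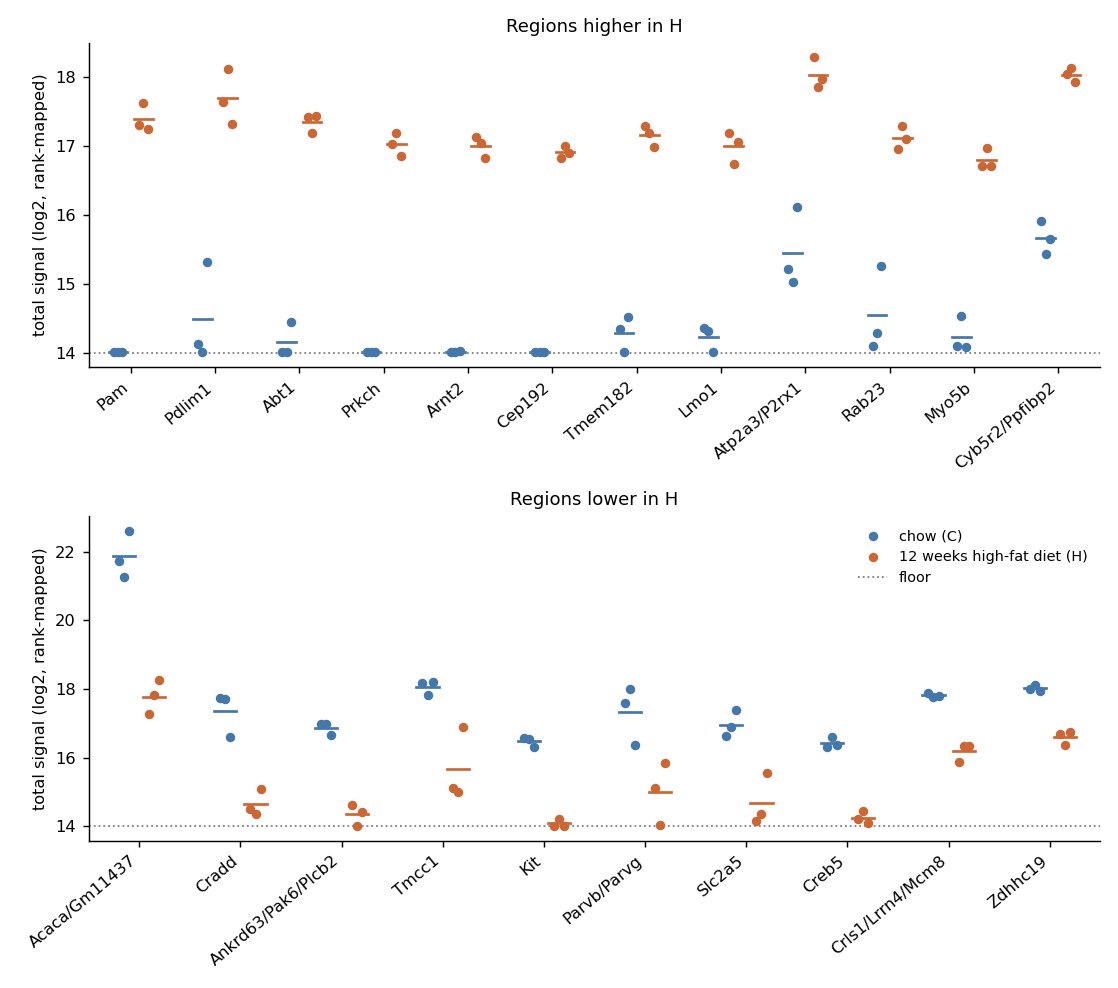
Each point is 1 library's log2 total signal, rank-mapped, at a region named by its p or by its difference, with C and H in different colours, bars at the group means and the dotted line at the floor of 14.01. The upper panel holds the 12 higher regions, many with C at the floor, and the lower panel the 10 lower regions, in which Acaca stands above all others in C.

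The strongest fall of all tested regions was at Acaca. The region chr11:84162558-84416918, which covers the gene and Gm11437, had 21.73, 21.27 and 22.62 in C and 17.26, 17.82 and 18.27 in H. The groups were far apart, and H fell by 4.09 (SE 0.36, limma adjusted p = 0.00304), a call that held without any 1 library. In C, 2, 4 and 1 peaks covered 237.2, 244.8 and 252.5 kb of the region, and in H 5, 6 and 8 peaks covered 15.8, 20.8 and 35.2 kb. The height changed less than the extent: the maximum signal fell by 0.91 (adjusted p = 0.00998). In HH against CC_l the same region differed by -1.21, and the difference between the contrasts, -2.87, did not pass (adjusted p = 0.38).

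Peaks were also narrower in H over 3 other genes of fatty acid synthesis and over Pik3r1, which were chosen after their values were seen. Of 1004 tested regions over 50 kb, 17 were higher (1.69%) and 25 lower (2.49%), with a median of -0.02. Peaks over Fasn, the fatty acid synthase gene, covered 101.7, 123.7 and 131.5 kb in C and 60.7, 71.2 and 66.5 kb in H, and its total signal fell by 1.09 (SE 0.16, limma adjusted p = 0.00836). Peaks over Acly covered 92.0, 88.4 and 109.1 kb in C and 35.3, 60.5 and 50.6 kb in H, and the total signal fell by 1.22 (SE 0.24, adjusted p = 0.016). Over Acacb, which encodes the carboxylase isoform of mitochondria, they covered 110.2, 139.9 and 132.1 kb in C and 54.2, 51.1 and 88.1 kb in H (-1.08, SE 0.23, adjusted p = 0.0215). For each of these genes every C library was covered over a longer stretch than every H library. Over Pik3r1, the regulatory subunit gene of PI3-kinase, coverage was 96.6, 95.5 and 93.3 kb in C and 77.8, 79.2 and 91 kb in H, a smaller change that brought H 3 close to C, and the signal fell by 1.08 (SE 0.20, adjusted p = 0.0143). None of these regions was called on the maximum signal, with differences of -0.13 to -0.63. Each of their calls was lost when some single library was left out, the Acacb and Pik3r1 calls without C 1, C 2, H 1 or H 2, the Acly call without C 1 or H 1 and the Fasn call without C 3 or H 1. In libraries C 2 and C 3 wide peaks were also more frequent overall than in H.

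**Figure D2:**
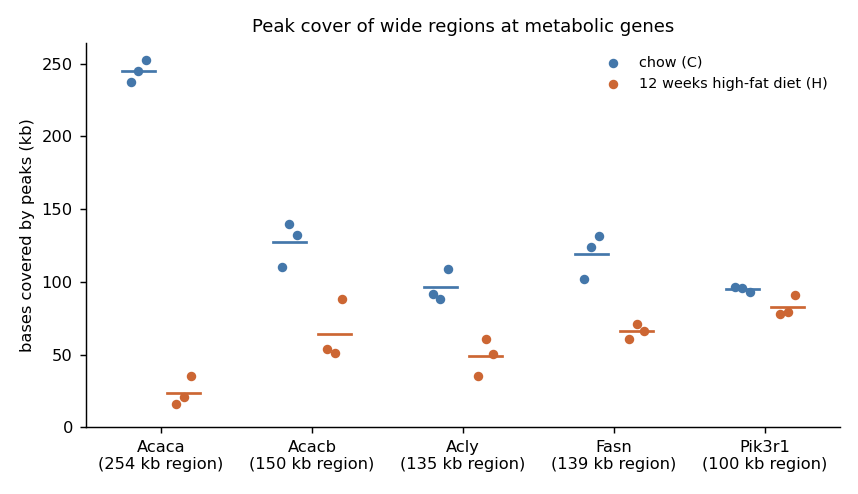
Kilobases covered by peaks in each of the 6 libraries within the regions over Acaca, Acacb, Acly, Fasn and Pik3r1, 1 point per library. Every C library was covered over a longer stretch than every H library in each region, and Acaca fell from 237.2 to 252.5 kb in C to 15.8 to 35.2 kb in H.

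The other lower regions with small p lay at genes of varied roles. Kit encodes the receptor of stem cell factor. Its intronic region chr5:75593949-75604267 had 16.57, 16.55 and 16.32 in C and 14.01, 14.22 and 14.01 in H, and fell by 2.4 in a region that passed the filter with C. Creb5 encodes a bZIP transcription factor, and its region chr6:53594271-53613694 had 16.32, 16.61 and 16.38 in C and 14.21, 14.44 and 14.08 in H, and fell by 2.19 (SE 0.22, limma adjusted p = 0.00396). In both, the H libraries lay at or near the floor and the groups did not overlap. A region over Ankrd63, Pak6 and Plcb2 fell by 2.52 and one at Zdhhc19, a palmitoyltransferase gene, by 1.43. The region over Crls1, Lrrn4 and Mcm8 had 17.89, 17.76 and 17.80 in C and 15.88, 16.34 and 16.33 in H. It fell by 1.64 (SE 0.16, adjusted p = 0.0037), and it holds the promoter of Lrrn4, the mesothelial marker with a promoter peak in 3 C and 0 H libraries, beside Crls1, the cardiolipin synthase gene.

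Among regions with a peak in all 6 libraries, an intronic region of Cradd, which encodes an adaptor of death-domain signalling, fell by 2.71 (SE 0.34, limma adjusted p = 0.00585) and kept its call without any 1 library. The region chr4:150116494-150143004 at Slc2a5, the fructose transporter gene, had 16.63, 16.89 and 17.38 in C and 14.16, 14.35 and 15.55 in H. It fell by 2.28 (SE 0.38, adjusted p = 0.0107), with H 3 the highest of its group and still below every C library, but it did not pass without C 2 (adjusted p = 0.0589). Regions at Tmcc1 (-2.41, adjusted p = 0.0148) and at Parvb and Parvg, parvin genes of focal adhesions (-2.31, adjusted p = 0.025), were called, and both calls were lost without C 1, C 2, H 1 or H 2.

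A class of regions noticed only after the values were seen was that of tRNA genes, which RNA polymerase III transcribes from promoters inside the gene. Of 148 tested regions that hold a RefSeq tRNA gene, 28 were higher in H (18.9%, against 4.93% of all regions) and 1 was lower (0.676%, against 3.36%). In 24 of the 148, 14 of them higher, every C library was at the floor. These entered the test only through H and could not be lower, and no tRNA region had every H library at the floor. Among regions above the floor in both groups, 14 of 124 with a tRNA gene were higher (11.3%, against 3.94% of 28058 regions) and 1 lower (0.806%, against 3.19%). Some of these 14 had 2 C libraries at the floor and passed the filter only with H, so this subset is not free of that selection. With a filter that used only the 16 libraries outside H and C, 14 of 121 were higher (11.6%, against 4.50% of 26585). The median difference of the 124 was 0.09, beside -0.06 for all regions above the floor in both groups. Both filters were added after the data were seen. On the maximum signal 41 of the 148 were higher and 0 lower, beside 1564 higher and 960 lower of 29459 tested regions of all kinds. Without C 2 16 were higher and 1 lower, beside 439 and 272 of all 30840. Both tRNA counts include regions with every C library at the floor. Neighbouring regions gave other shares. Of 841 regions within 200 kb of a tRNA gene but without one, 16 were higher (1.90%) and 25 lower (2.97%). Of other small RNA genes, 6 of 185 regions with an snRNA gene, 9 of 261 with an snoRNA gene and 15 of 464 with a miRNA gene were higher.

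The higher calls were counted by chromosome with the regions whose C libraries were all at the floor kept apart, since these could not be lower. On chromosome 13, 10 of the 27 regions above the floor in both groups were higher (37.0%), with a median difference of 0.79 over the 27, and 7 of 14 with every C library at the floor. Some of the 10 had 2 C libraries at the floor and likewise passed the filter only with H. All 17 higher regions lay between positions 21232491 and 23508779. On chromosome 3, 1 of 9 above the floor in both groups was higher and 7 of 10 with every C library at the floor, so its calls rest on regions that entered through H. On chromosome 1 it was 1 of 10, and on all other chromosomes together 2 of 78 (2.56%), with 1 lower and a median of -0.06. In 26 of the 28 higher regions a tRNA gene lay within the window of 300 bases at the strongest point, against 53 of the 119 tRNA regions that were not called. Of these 28, 14 entered only through H, and the sets were not matched for region width. The 28 regions hold 83 tRNA genes with anticodons for 18 of the 20 amino acids.

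The region near Abt1, an activator of basal transcription, is chr13:23394701-23403725 and contains the first sequence printed above. It had 14.01, 14.01 and 14.45 in C and 17.43, 17.18 and 17.43 in H, a difference of 3.19. A second region of chromosome 13, chr13:21912837-21922128, had 14.01, 14.01 and 14.91 in C and 17.56, 17.47 and 17.57 in H, a difference of 3.23. Both had 2 C libraries at the floor and passed the filter only with H. The chromosome 3 region chr3:96320949-96324670 was at 14.01 in every C library and at 15.65, 15.97 and 15.81 in H, at least 1.79 higher, and entered only through H. In all of these regions the C libraries were at or close to the floor. The chromosome 1 region chr1:171062590-171086781, with 15 tRNA genes, was open in both groups, at 18.52, 17.81 and 18.42 in C and 20.43, 20.39 and 20.54 in H. It rose by 2.20 (SE 0.18, limma adjusted p = 0.00264), and its maximum signal rose by 2.58.

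The differences of the 14 higher tRNA regions with every C library at the floor are lower bounds. In HH against CC_l, libraries that took no part in the test, 27 of the 28 (96.4%) had a positive difference, with a median of 1.06. So had 1402 of the 1492 other higher regions (94.0%), with a median of 0.79, and 79 of the 119 tRNA regions that were not called. Copies of a tRNA gene are nearly identical, and how reads that fit several copies were placed is not given in the sources used here, so which copy carried the signal is uncertain.

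**Figure D3:**
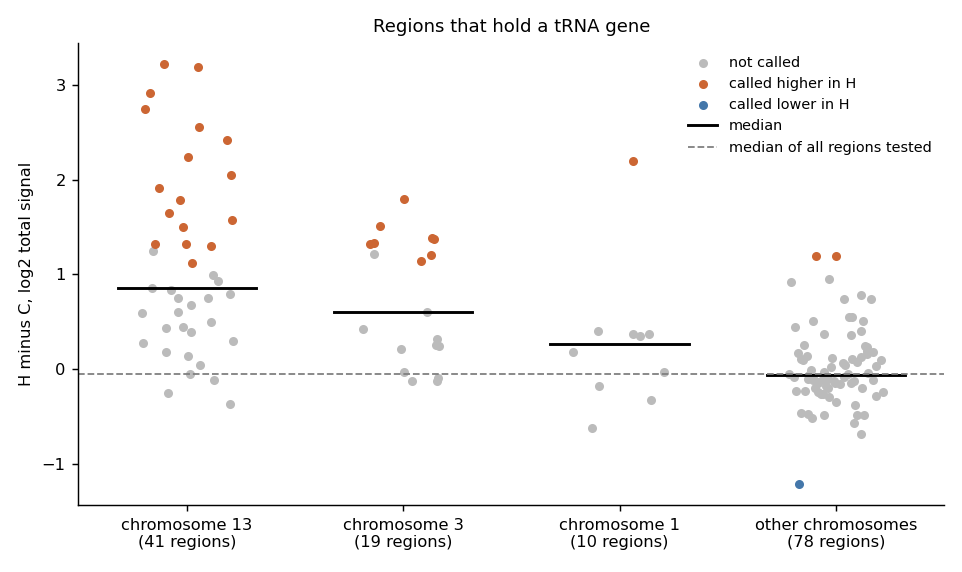
The log2 difference H minus C of each of the 148 tested regions that hold a tRNA gene, by chromosome, with a black bar at the median of each chromosome group and a dashed line at the median of all tested regions. Of the points, 14 on chromosome 13 and 10 on chromosome 3 had every C library at the floor and could lie only above 0. The regions of the other chromosomes scatter around the dashed line.

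Called regions that lie near each other mostly changed in the same direction, another pattern described after the values were seen and given without a test. Of neighbouring called pairs less than 20 kb apart, 299 of 300 (99.7%) shared their direction, where the shares of higher and lower calls alone would give 51.8%. The share was 95.8% (181 of 189) at 20 to 50 kb, 83.3% (349 of 419) at 50 to 200 kb and 68.4% (585 of 855) from 200 kb to 1 Mb. On the maximum signal these shares were 98.0, 93.2, 81.3 and 68.9%, and without C 2 the share under 200 kb was 97.5% (117 of 120). Peaks that are split from 1 wide stretch count as neighbours here.

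**Figure D4:**
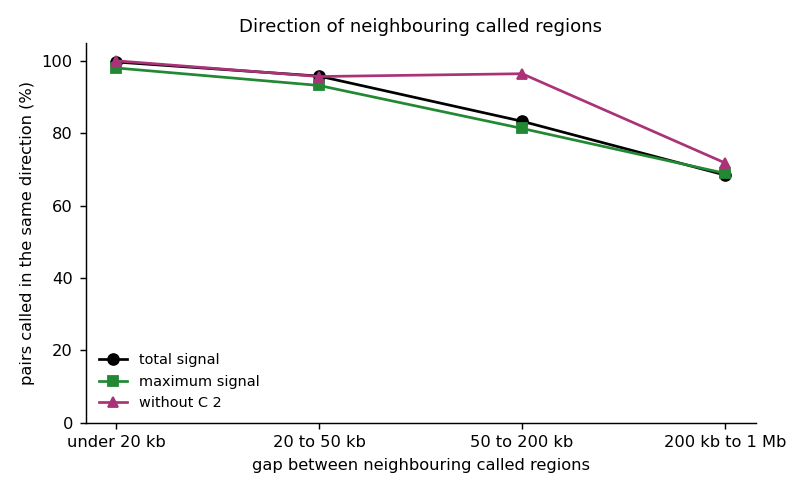
Percent of neighbouring called regions that changed in the same direction, by the gap between them, for the total signal, the maximum signal and the total signal without C 2. The share falls from 99.7% under 20 kb to 68.4% beyond 200 kb on the total signal.

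Linking calls of 1 direction that lie less than 200 kb apart gave 51 loci of at least 4 higher calls and 37 loci of at least 4 lower calls. None held a call of the other direction within its span, but the linking used 1 direction at a time, and opposite loci could lie side by side. On chromosome 12, a locus of 5 higher calls (24961523-25070864) lay next to one of 4 lower calls (25107778-25212317). Loci with many higher calls were the chromosome 13 tRNA stretch near Abt1 and the butyrophilin genes (8 of 12), Ddah1 with Ccn1 and Col24a1 (8 of 16), Rab23 with Dst and Zfp451 (8 of 11) and Pam (6 of 10). In Palld, which encodes the actin-associated protein palladin, 6 of 13 linked regions were higher, and the one with the smallest p rose by 2.24 (SE 0.24, limma adjusted p = 0.00418). In Mcph1 5 of 10 were higher, but the region with the smallest p, which also holds Angpt2, rose by 1.17 on the total signal and differed by -0.32 on the maximum signal.

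Lower loci were Mast4 with Cd180 (8 of 21 tested regions over 867 kb of chromosome 13), the Nat8 cluster with Alms1 (7 of 8), Ext1, which encodes an enzyme of heparan sulfate synthesis (7 of 13), the calcium channel gene Cacna1c (6 of 8), Sema4d (6 of 11) and Pik3r1 (5 of 8). The Cacna1c region with the smallest p had 15.95, 15.65 and 15.54 in C and was at 14.01 in every H library, a difference of -1.70 that is a lower bound on its fall. The Ext1 region had 15.81, 15.89 and 15.11 in C and was likewise at the floor throughout H, with a difference of -1.59. Both regions entered the test only through C. Gm20388, a read-through model spanning many genes of chromosome 8, had 9 lower and 3 higher regions among 84.

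Of all 24130 regions linked to a gene, 4.68% were higher, 2.95% were lower and 46.6% had a positive difference, and without C 2 1.41% were higher and 0.804% lower. In the list of lipogenesis and triglyceride synthesis, the members that were called lost signal, and others did not. Of 33 regions linked to the 24 genes of this list, 0 were higher and 4 lower (12.1%, at Acaca, Fasn, Acly and Acacb), with a median of -0.36 beside -0.04 for all linked regions. Without C 2, 3 of them were lower. Of their 24 promoters, 0 were higher and 2 lower, against 1.02% and 0.96% of all promoters, with a median of -0.63 beside 0.03, and 8 were positive. Among triglyceride synthesis genes, the promoters of Lpin1 (0.80), Dgat2 (0.66), Agpat2 (0.59), Gpat3 (0.44) and Dgat1 (0.33) had positive differences. That of Gpam had a negative one (-1.04), and none of these was called. Of the positive ones, only Dgat2 stayed positive on the maximum signal (0.20). The promoter peaks of the list held 0.583 to 0.998% of a library's signal in C and 0.288 to 0.441% in H. The promoter of Srebf1, which encodes the master regulator SREBP1 of lipogenic genes, had 20.04, 19.56 and 19.10 in C and 17.11, 17.59 and 17.36 in H, and fell by 2.22 (SE 0.28, limma adjusted p = 0.0232). That of Acly had 19.97, 18.87 and 19.85 in C and 17.32, 17.67 and 17.44 in H, and fell by 2.09 (SE 0.32, adjusted p = 0.0329). The groups did not overlap at either promoter, but a promoter's value is the total signal of the whole peaks that reach it, so it also moves when a wide peak shrinks or splits. Measured by maximum signal, Srebf1 differed by -0.85 and Acly by -0.11. The Srebf1 call was lost without C 2, H 1 or H 2, and the Acly call when any library other than C 2 was left out. No region of the list was called on the maximum signal.

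Adipocyte identity genes as a group did not move one way: of 44 linked regions 2 were higher and 1 lower (4.55 and 2.27%, median 0.03), with none called without C 2, and of 25 promoters 1 was higher. Of these promoters 17 had a positive difference. Their median was 0.32, beside 0.03 for all promoters, and -0.15 on the maximum signal. The promoter of Fabp4, the fatty acid binding protein of adipocytes, had 18.97, 18.75 and 19.07 in C and 20.14, 20.03 and 19.98 in H, and rose by 1.12 (SE 0.15, limma adjusted p = 0.0259) with no overlap. Its maximum signal differed by 0.28, its centred value of 0.89 missed the threshold, and the call was lost without C 2, H 1, H 2 or H 3. A region at Cd36, a fatty acid transporter gene, rose by 1.01 and one in Tshr, the thyrotropin receptor gene, by 1.27, whereas a region of Ebf2 fell by 1.27. The promoter of Adipoq, the adiponectin gene, had 21.98, 21.40 and 21.37 in C and 22.23, 22.56 and 21.37 in H, which overlap (0.47, adjusted p = 0.461), and the value turned to -1.06 on the maximum signal. The promoters of Pparg (-0.43, adjusted p = 0.269), Plin1 (0.25, adjusted p = 0.336, and -0.25 on the maximum signal) and Lep (0.76, adjusted p = 0.168) were not called.

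Of 59 regions linked to circadian clock and glucocorticoid response genes, 0 were higher and 7 lower (11.9%, against 2.95% of all linked regions), with 10 of 59 differences positive and a median of -0.37 (-0.27 on the maximum signal). On the maximum signal 2 of 55 were lower (3.64%, near the 2.74% of all linked regions). Without C 2 4 of 59 were lower (6.78%, against 0.804%), and likewise 4 with centred scaling (against 2.3%). Among the lower ones were 3 regions of Npas2, a partner of BMAL1, and 3 of Rora, a nuclear receptor that acts on clock gene promoters. At the Npas2 exon region chr1:39281950-39290676 C had 15.35, 15.26 and 16.02 and H was at 14.01 throughout, a difference of -1.53 in a region that entered only through C. At the Rora intron region chr9:69049270-69057382 C had 15.52, 15.36 and 15.69 and H 14.01, 14.01 and 14.19. The region fell by 1.45, with every C library above every H library, and passed the filter with C. The Npas2 promoter fell by 1.07 on the total signal and differed by -0.11 on the maximum signal. The time of day of tissue collection was not used here.

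Of 51 regions linked to fatty acid oxidation and thermogenesis genes, 2 were higher and 6 lower (3.92 and 11.8%, against 4.68 and 2.95% of all linked regions), while the median was positive at 0.17. Without C 2, 0 were higher and 1 lower, and on the maximum signal 1 was higher and 0 lower. The higher ones were both at Prdm16, a regulator of brown fat identity (1.36 and 1.19, every C library at the floor). The lower ones were 4 regions of Esrrg, an orphan nuclear receptor gene (-1.02 to -1.33), 1 near Ppargc1a, the PGC-1alpha gene, and 1 at Cpt2, a carnitine palmitoyltransferase gene (-1.46). The Ppargc1a region chr5:51581977-51588144 had 15.77, 15.22 and 15.45 in C and 14.10, 14.01 and 14.28 in H, and fell by 1.35 (SE 0.23, limma adjusted p = 0.0115) without overlap. Of 67 regions of insulin signalling genes, 4 were higher and 3 lower (5.97 and 4.48%, near the shares of all linked regions), and 1 and 1 without C 2. Grb14, which encodes an adaptor that restrains the insulin receptor, rose by 2.23 (SE 0.30, adjusted p = 0.00684), from 15.16, 14.42 and 14.01 in C to 16.72, 16.90 and 16.66 in H. Regions of Gsk3b (2.00 and 1.19) and Tbc1d4 (1.40) rose, and 2 regions of Igf1r fell (-1.58 and -1.31), as did the Pik3r1 region given above.

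Of 40 regions linked to actin cytoskeleton genes, 5 were higher (12.5%, against 4.68% of all linked regions) and 0 lower, and 33 (82.5%, against 46.6%) had a positive difference (median 0.37, and 0.12 on the maximum signal). Without C 2, 3 were higher. Of the 23 genes of the list, Mkl1 and Mkl2 were not found under those symbols. The higher regions were 2 of Pdlim1 and 1 each at Actn1, Acta2 and Pdlim5. The region of Actn1, an alpha-actinin gene, had 15.46, 14.59 and 15.46 in C and 17.35, 17.55 and 17.15 in H, and rose by 2.18 (SE 0.26, limma adjusted p = 0.00523). The Acta2 region, at the smooth muscle actin gene, had 17.12, 16.86 and 17.82 in C and 19.16, 19.16 and 18.78 in H, and rose by 1.77 (SE 0.24, adjusted p = 0.00684). The groups did not overlap in either. On the maximum signal 1 of the list's 35 tested regions was higher (2.86%, against 3.94% of all linked regions) and 0 were lower, and the Actn1 region differed there by 0.19.

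Of 79 extracellular matrix regions 4 were higher and 1 lower (5.06 and 1.27%, against 4.68 and 2.95% of all linked regions), and none was called without C 2. The higher ones were at Col6a2 (2.36), Nid1, the basement membrane protein nidogen 1 (1.39 and 1.08), and Itgb1 (1.05), and the lower one at Mmp2 (-1.08). The Sparc promoter was called at 1.05, but its maximum signal differed by 0.15 and the call was lost when any library other than C 1 was left out. The promoter of Bgn, the proteoglycan biglycan, had every H library at the floor and differed by -1.67, a call lost when any library other than C 3 was left out. Of 58 TGF-beta and Hippo regions 4 were higher, 3 of them in Runx2 (1.21 to 1.29) and 1 at Smad4 (1.23), and 4 lower, 3 in the receptor gene Tgfbr2 (-1.27 to -1.59) and 1 near the ligand gene Tgfb2 (6.90% of the list in each direction). Of the 22 genes of this list Ctgf and Cyr61 were not found under those symbols and are not counted. Cyr61 is annotated as Ccn1, which lies in the higher locus with Ddah1. Without C 2, 0 were higher and 2 lower. That Tgfb2 region had 15.54, 15.57 and 15.57 in C and 14.04, 14.18 and 14.19 in H, and fell by 1.43 (SE 0.20, limma adjusted p = 0.00733). The groups were tight and apart. Of 29 regions of AP-1 family genes 1, in Bach2, was higher and 0 were lower. It had 14.01, 14.01 and 14.22 in C and 15.33, 15.14 and 15.18 in H.

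Of 46 inflammatory signalling regions 4 were higher, at Nfkb1 (1.53), Icam1 (1.22), Vcam1 (1.16) and Irf8 (1.02), and 2 lower, at Ptx3 (-1.23) and Ccl8 (-1.01), which is 8.70 and 4.35% of the list against 4.68 and 2.95% of all linked regions. The Irf8 region differed by -0.09 on the maximum signal, and none of these 6 calls held without C 2. Of 42 lysosome and lipid-associated macrophage regions 2 were higher, in Tfec (1.10) and at Ctsk, and 0 lower, with 1 higher and 3 lower on the maximum signal and none called without C 2. The promoter of Ctsk, the cathepsin K gene, was higher by 1.26 (limma adjusted p = 0.0377), a call lost when any 1 library was left out. Of 14 macrophage marker regions, 17 progenitor and fibroblast regions and 8 lymphocyte regions 0 were called in either direction. Of 20 endothelial marker regions 2, both in Cdh5, were higher (1.68 and 1.54) and 2, both in Vwf, lower (-2.04 and -1.21). Of 3 epididymal epithelium regions 1, near Elf3, was lower (-1.32), and of 5 mesothelial regions the 1 that holds Lrrn4.

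At promoters the counts were smaller: of 12705 tested, 129 were higher (1.02%) and 122 lower (0.96%). Over the same promoters the counts were 72 higher and 127 lower without C 1, 20 and 39 without C 2, 34 and 38 without H 1 and 43 and 36 without H 2. The higher promoters with the smallest p were at or near the floor in C. That of Aipl1, a chaperone gene known from photoreceptors, was at the promoter floor of 14.30 in every C library and at 17.99, 18.50 and 18.09 in H, at least 3.89 higher, and entered the test only through H. It was followed by P2rx1 (3.12), Trim72, a membrane repair gene of muscle (2.77), Slc5a7, the choline transporter gene (2.44), Zfp169 (2.25) and Ear2, an eosinophil-associated ribonuclease gene (1.85). Those of P2rx1, Trim72 and Ear2 also had every C library at the floor, so their direction was set by the filter. Trim72 differed by 0.47 on the maximum signal.

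Among lower promoters, that of the homeobox gene Hoxa9 had 18.82, 18.61 and 18.34 in C and 14.30, 14.30 and 14.34 in H, a difference of -4.28. With H at or next to the floor, it passed the filter only with C. That of Tlr9, the receptor for unmethylated CpG DNA, had 18.82, 19.14 and 19.06 in C and 14.70, 14.30 and 14.98 in H, and fell by 4.35 (SE 0.22, limma adjusted p = 0.00111). That of Hs3st6, a heparan sulfate sulfotransferase gene, had 18.44, 18.21 and 18.50 in C and was at 14.30 in every H library, a difference of -4.08 that is a lower bound on its fall, and entered only through C. On the maximum signal these 3 differed by -2.09, -2.03 and -2.50. Rapgef1, a Rap1 exchange factor gene, fell by 2.95 and Tectb by 2.71. Ucn2, a urocortin gene, was likewise at the floor in every H library and differed by -2.81.

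Higher regions lay farther from genes' starts than lower ones. Of the higher regions 29.4% touched a promoter, of the lower 37.1% and of those not called 46.0%, where a promoter is 2000 bp to each side of a start. Exonic regions without a promoter made up 25.5, 18.4 and 16.2% of these sets, intronic 19.9, 17.0 and 16% and intergenic 25.2, 27.5 and 21.8%. The median distance to the nearest start was 17016 bp for higher, 12780 bp for lower and 8843 bp for regions not called. Higher regions had a median GC content of 47.0% and a mean of 5.04 CpG in the central 300 bases, against 50.7% and 7.35 for lower and 50.7% and 9.65 for regions not called. Of the higher regions 320 had no peak in any C library, and of the lower 96 had none in any H library. With the tested regions split into 10 equal bins by mean signal, bins 1 and 2 lay too close to the floor for a difference above 1. The called share peaked in bin 4 (12.7% higher and 8.33% lower) and was 1.88 and 1.46% in bin 10. These differences between the sets were not tested.

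The same classes were compared over the strongest 30083 regions of each library without use of the calls. Promoter regions made up 46.1, 46.1 and 45.3% in C and 44.5, 43.9 and 43.9% in H, a difference of -1.74 percentage points. The groups did not overlap, and the exact permutation test gave p = 0.1, the smallest possible, and 0.267 adjusted over the 4 classes. Exonic regions differed by 0.914 points (exact p = 0.2), intronic by 0.291 (exact p = 0.2) and intergenic by 0.534 (exact p = 0.3).

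Motif shares in the windows of 300 bases at the strongest point differed between the sets. AP-1 matches were in 15.1% of higher, 10.2% of lower and 10.0% of regions not called, TEAD in 24.9, 16.7 and 17.6%, RUNX in 23.6, 17.7 and 17.4% and MEF2 (TATTTNTA) in 8.82, 3.86 and 5.69%. GC-box matches were in 9.87, 16.1 and 25.1%, and the CEBP motif in 28.4, 25.8 and 23.1%. A glucocorticoid receptor motif was in 1.51, 2.42 and 1.47% and an EBF motif in 0.99, 2.80 and 1.5%, so both were more frequent among lower regions. No test was run on these shares, and the sets also differ in GC content and distance from promoters.

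**Figure D5:**
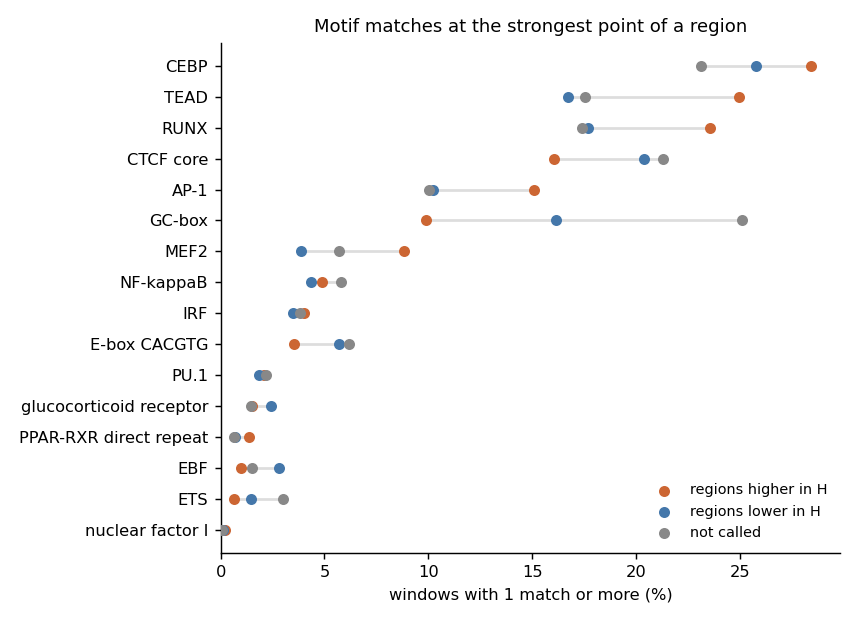
Percent of 300-base windows with at least 1 match to each motif, for regions higher in H, lower in H and not called. Each point is 1 set of regions on the percent axis, joined by a grey line within a motif. The AP-1, TEAD, RUNX and MEF2 points lie farthest right for the higher regions, and the GC-box point for regions not called.

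Calls were uneven across chromosomes. On chromosome 19, 8.55% of tested regions were higher and 1.22% lower, with a median of 0.17. On chromosome X, 0.819% were higher and 5.46% lower, with a median of -0.29. Both medians stayed on the same side of that of all regions when libraries were centred on the median (0.36 and -0.07, with 0.17 for all regions). Peaks on chromosome X held 1.16, 1.33 and 1.26% of the signal in C and 0.916, 0.903 and 1.24% in H, and H 3 lay within the range of C. Peaks on chromosome 19 held 1.85, 2.60 and 2.75% in C and 2.49, 2.59 and 2.73% in H, which overlap.

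Calls were made on the total signal, which grows with the length covered, so the lengths of called regions are a description. Among called regions with a peak in all 6 libraries, the median length covered by peaks was 3.91 kb in C and 7.88 kb in H for the 659 higher regions, and 6.88 kb in C and 2.83 kb in H for the 535 lower regions. Over all tested regions with a peak in all 6 it was 4.78 and 4.42 kb. When the maximum signal was used in place of the total, 1668 regions were higher and 1036 lower. Of the higher calls 660 were shared, which is 43.4% of the calls by total and 39.6% of those by maximum signal, and of the lower calls 309 were shared (29.9 and 29.8%).

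Set beside 25 weeks of the diet, the contrast H minus C and the contrast HH minus CC_l, which share no library, did not differ at any region at an adjusted p under 0.05 (0 of 30840 in limma, with 1959 at an unadjusted p under 0.05), and differed at 9 of 12705 promoters. CC_l had only 2 libraries, so the absence of a call does not show that the contrasts were alike. Of the strongest higher regions, Pam differed by 2.78 between HH and CC_l, Prkch by 2.81, Pdlim1 by 2.81 and Arnt2 by 2.02. Of the lower ones, Creb5 differed by -1.78, Cacna1c by -1.96, Kit by -0.84 and Fasn by -0.48. The promoters of Hoxa9 (0.12), Srebf1 (0.44) and Ucn2 (0.43), all lower in H, had small positive differences there.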

How the data were processed

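ATAC-seq libraries of H and C (3 each) were taken from 22 deposited peak lists. The authors trimmed reads with Trim Galore 0.6.6, aligned them with Bowtie2 2.4.4 to GRCm38 and called peaks on each library alone with SEACR 1.3 (stringent, threshold 0.01), with SAMtools 1.13 and bedtools 2.30 also named in the submitters' processing notes. The paper states that peaks in blacklisted regions were removed, but not whether before these lists were written. The deposited values are total and maximum signal per peak, with no stated normalization.

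Peaks overlapping by 1 bp in any of the 22 libraries were merged into 104657 regions. In each library the 30083 strongest regions took the mean log2 total signal of their rank, and others the floor of 14.01. Promoters were 2000 bp to each side of start sites, with 12439 genes kept and a floor of 14.3. Regions above the floor in at least 3 of the 6 libraries were tested with limma 3.58.1 (R 4.3.3, lmFit and eBayes with trend), which was also run on simulated data. Calls needed an adjusted p under 0.05 and a log2 difference above 1. Library measures used two-sided exact permutation tests over 20 relabellings. Python 3.11.15, numpy 2.4.6, pandas 2.3.3 and scipy 1.17.1 were used. The number of unmatched columns was 0.

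A region was linked to the coding genes it overlaps, or else to the closest within 20000 bp. Named are, in each direction, the 6 linked regions of smallest p, the 6 of largest difference with a peak in all libraries, the 6 promoters of smallest p, the called region of smallest p of each list, the 4 genes with most called regions, and Adipoq, Lep, Pparg and Plin1. The other called list members, the tRNA genes, the loci and the wide regions were chosen after their values were seen. Some items that this rule names are not reported here. Members and lists were chosen with earlier results of these data known. Alternatives were the maximum signal, other scalings, filters, overlaps and model settings, blocking on the replicate number, and leaving out each library.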

Additional observations from a re-analysis of the deposited data

Results flagged for a closer look

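Only the promoter results below were picked out, because the change from C to H differed from the change from CC_l to HH by the limma interaction test (9 of 12705 promoters at an adjusted p under 0.05, 583 at an unadjusted p under 0.05). The value given is (H minus C) minus (HH minus CC_l) on the log2 scale. It was -4.40 at Hoxa9, -4.04 at Tlr9, -3.79 at Gm11037, -3.64 at Tcam1, -3.03 at Cd14, -2.50 at Ccdc84, -2.34 at Gm11444 and -1.67 at Rpl7l1. These 8 promoters were lower in H than in C, with H minus C from -1.34 at Rpl7l1 to -4.35 at Tlr9, and their HH minus CC_l ran from -0.68 at Cd14 to 0.34 at Rpl7l1. At Gpbar1, the bile acid receptor gene, the value was 4.67, with H minus C at 0.64 and HH minus CC_l at -4.03. A promoter's value moves when a wide peak that reaches it splits, and its part in these differences was not tested.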

How the results depend on the processing

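The calls depended on single libraries and on the filter. Leaving out 1 library and filtering anew gave 128 to 1506 regions higher and 19 to 1100 lower, and 18 to 149 promoters higher and 36 to 152 lower, with the fewest region calls without C 2. Over the same features, an alternative added after the data were seen, regions numbered 886 higher and 604 lower without C 1, 439 and 272 without C 2, 985 and 486 without H 1, 954 and 468 without H 2 and up to 1576 and 1256 without H 3. Promoters then numbered 72 higher and 127 lower without C 1, 20 and 39 without C 2, 34 and 38 without H 1, 43 and 36 without H 2 and up to 151 higher and 128 lower without H 3. Higher and lower regions numbered 207 and 132 over the 10000 strongest of each library, 482 and 455 with 50% cover, 798 and 426 without a filter and 617 and 504 above the floor in all 6 libraries, and 3559 were higher with centred scaling. Promoters numbered 56 higher and 63 lower above the floor in all 6 libraries and 75 and 62 in a fit with CC_s and HC, and 81 were lower on the maximum signal. Class differences without 1 library ran from -2.01 to -1.59 points (promoter), 0.427 to 1.3 (exon), 0.181 to 0.453 (intron) and 0.322 to 0.765 (intergenic), and the intergenic difference turned to -0.637 over the 10000 strongest. On the maximum signal 4 named values changed sign: the Adipoq promoter (-1.06), the Plin1 promoter (-0.25), the Angpt2 and Mcph1 region (-0.32) and the Irf8 region (-0.0902). The causes were not tested.

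Replicate numbers did not pair the samples: same-numbered libraries correlated at 0.10, -0.11 and 0.01 in their deviations from the group means. With a replicate block 1476 regions were higher and 937 lower, and 10 promoters higher and 20 lower. Of 2354 values of 111 named results under alternatives, 1653 kept direction and side of the threshold, 697 no longer passed it and 4 changed sign. Higher tRNA regions, over the same features with 1 library left out, numbered 16 to 30, with 16 without C 2. The lists hold no counts, so the depth that limits weak regions is unknown.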
